A study of Mus musculus with 18 samples.

Results

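The GIMAP family (GTPases of immunity-associated proteins) was followed in naive T cells of mice that carried too much or none of the microRNAs of the miR-23 cluster. Its genes were taken by symbol from a table of RPKM values (read numbers scaled by transcript length and library size) deposited by the study's authors, and all 8 family symbols listed there (Gimap1, Gimap3, Gimap4, Gimap5, Gimap6, Gimap7, Gimap8 and Gimap9) were used, of 23951 gene symbols. All 8 were among the 11099 genes that reached 1 RPKM in at least 3 of the 18 libraries and were tested. The cells were sorted by flow cytometry as naive CD4+CD25- T cells from C57BL/6 mice, and 3 RNA-seq libraries were made from each of 6 genotypes. T cells of cluster Tg mice over-expressed the entire cluster, and T cells of the miR-27 Tg, miR-24 Tg and miR-23 Tg lines over-expressed only the member they are named for. DKO mice lacked both the a and the b copy of the cluster in T cells, and WT mice served as the control. The promoters or Cre lines behind the T cell restriction, the founder lines, the age and the sex of the mice were not stated. Nor is it stated whether libraries of a genotype came from different mice, so p-values reflect only how far libraries differ, some of which may be technical. In such bulk samples fewer cells of a type and less RNA per cell cannot be told apart.

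GIMAP proteins are GTP-binding proteins found mainly in lymphocytes, many of them anchored to the membranes of lysosomes, mitochondria or the endoplasmic reticulum. Their genes sit together in a tight cluster, and several of them are needed for naive T cells to persist in the periphery: rats and mice that lack functional Gimap5 lose most of their peripheral T cells, and deletion of mouse Gimap1 depletes mature T and B cells. MicroRNAs such as miR-23, miR-24 and miR-27 lower the level of messenger RNAs that carry a match to the microRNA's seed, bases 2 to 8, in the 3′ UTR.

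The mature microRNAs of the cluster, given by RefSeq for mouse build GRCm38.p6, are shown because they set which transcripts can be matched, with the seed in capitals. The miR-27a and miR-27b forms share a seed, and miR-23, miR-24 and miR-27 have different seeds.
miR-23a-3p: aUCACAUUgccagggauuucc
miR-24-3p: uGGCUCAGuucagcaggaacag
miR-27a-3p: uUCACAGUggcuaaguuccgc
miR-27b-3p: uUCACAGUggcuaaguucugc

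A match was sought in the sense strand of the longest annotated 3′ UTR of each gene (GENCODE transcripts on GRCm38), as the complement of seed bases 2 to 8 or of bases 2 to 7 followed by A. The letters were AATGTGA or ATGTGAA for miR-23, CTGAGCC or TGAGCCA for miR-24 and ACTGTGA or CTGTGAA for miR-27. Of the 8 family members, 4 held a match and 4 (Gimap1, Gimap4, Gimap7 and Gimap8) held none in this window. The windows below are shown because the genes whose levels changed are among them, with the matching bases in capitals.
Gimap9 with miR-27: aagaggacACTGTGAccgttgttt
Gimap5 with miR-24: agaatcacaTGAGCCAgaaagtct
Gimap3 with miR-24: gttatgcgCTGAGCCcggcctgac
Gimap6 with miR-23: agggcatccATGTGAAccaagctg
Gimap6 with miR-27: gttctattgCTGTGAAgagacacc

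The match of Gimap9 began at base 207 of a 3′ UTR of 343 bases. That of Gimap5 began right after base 562 of 786, and that of Gimap3 at base 406 of 625. Gimap6 had its matches right after bases 2334 and 2385 of a 3′ UTR of 2822 bases. Among all tested genes with a 3′ UTR, 9844 in number, 24.23% held a match to miR-23, 26.29% to miR-24 and 28.61% to miR-27. Among those with a 3′ UTR within 25% of the length of Gimap9's, 9.59% held a miR-27 match, and 17.62% of those near the length of Gimap5's held a miR-24 match. Near the length of Gimap6's, 45.56% held a miR-27 match. A match is a run of letters and says nothing of whether the microRNA binds there.

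The hairpin rows of the cluster went with the labels, since every transgenic genotype had its own hairpins far above WT. Mir23a ranged from 64024 to 74236 RPKM in miR-23 Tg, Mir24-2 from 13888 to 49237 in miR-24 Tg and Mir27a from 27981 to 234933 in miR-27 Tg. Cluster Tg libraries had at least 16951 RPKM of each of the 3 hairpins. None exceeded 279.5 RPKM in WT or 76.1 in DKO. Replicate 3 of miR-27 Tg and replicate 3 of DKO stood apart, with scores of 122.5 and 51.3 on the first principal component (24.8% of the variance), against -20.8 to -0.317 in the other 16 libraries. The second component (14.7%) parted libraries of miR-24 Tg, miR-27 Tg and cluster Tg (6.61 to 43.9) from those of miR-23 Tg, DKO and WT (-30.2 to -16.4). No source used here says whether these sets were prepared separately, so genotype and preparation cannot be told apart. The T cell and CD4 markers Cd3d, Cd3e, Cd3g, Cd4, Cd5, Lck and Thy1 were all strongly expressed, at 165 RPKM or more in every library.

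The family was abundant in naive T cells, in 3 tiers of level per length. Gimap6, which binds proteins of the ATG8 family of autophagy, Gimap4, described as promoting the death of T cells after apoptotic signals, and Gimap3, the closest relative of Gimap5, had the highest means over the 18 libraries, at 750.1, 694 and 564 RPKM. They ranked 96, 100 and 122 among the 11099 tested genes. Gimap1, Gimap9 and Gimap8, the last a member with repeated GTPase domains, formed the middle tier at 160.3, 151 and 138 RPKM. Gimap5, a lysosomal and survival-linked member, averaged 44.2 RPKM, and Gimap7, whose human counterpart activates the GTPase of human GIMAP2, averaged 39.6 RPKM. The top tier lay above the middle tier in 18 of 18 libraries, and the middle above the lowest in 17. The exception was miR-27 Tg replicate 3, where Gimap8 (50.7 RPKM) lay below Gimap7 (63.5 RPKM). Within tiers the order was less firm. Gimap4 exceeded Gimap3 in 18 of 18 libraries, but Gimap6 exceeded Gimap4 in only 9, and Gimap5 exceeded Gimap7 in 13. Gimap9 lay above Gimap1 in all 3 cluster Tg and all 3 miR-27 Tg libraries, against 0 of 3 WT libraries. Together the 8 genes summed to between 2117 and 4559.6 RPKM per library, and to between 2117 and 2808 RPKM without the libraries that stood apart. Gimap3 and Gimap5 share 190 runs of 50 bases, 9.06% of those in Gimap3 and 9.98% of those in Gimap5. No source used here says how the authors divided shared reads or whether they counted by strand, so part of the level of either gene is uncertain.

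**Figure D1:**
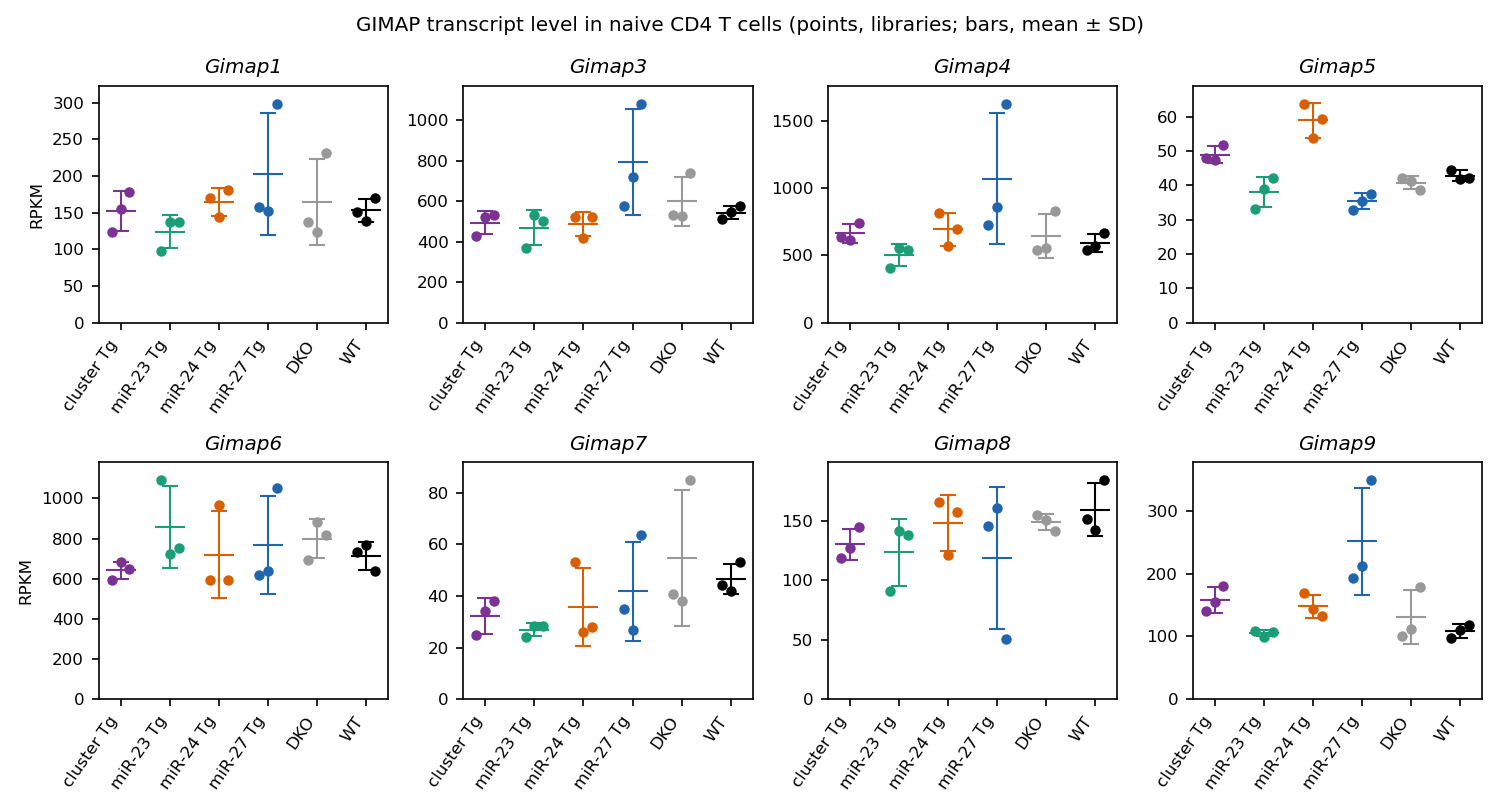
RPKM (vertical axis, from 0, own scale per gene) of the 8 GIMAP genes in cluster Tg, miR-23 Tg, miR-24 Tg, miR-27 Tg, DKO and WT naive T cells. Points are the 3 libraries of a genotype and bars the mean ± SD; miR-24 Tg stands highest for Gimap5 and miR-27 Tg for Gimap9.

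Fold changes below are differences of log2(RPKM + 1), and a gene is called changed where the adjusted p of limma, corrected over all 11099 tested genes, is under 0.05. An F test over the 6 genotypes called 2 of the 8 members, Gimap5 (adjusted p = 0.00137, limma) and Gimap9 (adjusted p = 0.0125, limma), where it called 19.0% of all tested genes. The adjusted p of the other 6 members lay between 0.149 for Gimap4 and 0.757 for Gimap6. The comparisons with WT share the same 3 WT libraries, and all comparisons share the spread estimated over the 18 libraries.

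Gimap5, whose loss in rats and mice removes most peripheral T cells, rose in the cells that over-expressed miR-24. It measured 63.9, 53.8 and 59.2 RPKM in the miR-24 Tg libraries, against 44.6, 41.8 and 42.2 RPKM in the WT libraries. All 3 miR-24 Tg libraries lay above all 3 WT libraries, and no library of any other genotype reached the lowest of them. The means were 59.0 ± 5.06 RPKM in miR-24 Tg and 42.9 ± 1.53 RPKM in WT (SD, n = 3 each), a log2 fold change of 0.45 ± 0.10 (SE, adjusted p = 0.0206, limma). It was the only call among the 8 members in this comparison, where 3.59% of all tested genes were called. The transcript that rose in miR-24 Tg holds a miR-24 seed match, the TGAGCCA window shown above. The call ended without miR-24 Tg replicate 1 (0.39, adjusted p = 0.115, limma) or replicate 3 (0.44, adjusted p = 0.0747), and without WT replicate 1, 2 or 3 (0.48, 0.43 and 0.44, adjusted p = 0.0573, 0.0884 and 0.0829).

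Across the other genotypes Gimap5 kept a narrow spread within each genotype. Cluster Tg libraries had 47.9, 47.3 and 51.8 RPKM, next highest after miR-24 Tg and all above the WT libraries, with a log2 fold change against WT of 0.19 ± 0.10 (SE, adjusted p = 0.326, limma) that was not called. The miR-27 Tg libraries had the lowest mean, at 32.9, 35.6 and 37.6 RPKM, all below the WT libraries, with a log2 fold change of -0.27 ± 0.10 that was not called (adjusted p = 0.107, limma). Without the libraries that stood apart, Gimap5 was called lower in miR-27 Tg than in WT (-0.32, adjusted p = 0.0329, limma), in a fit that called 20.0% of all tested genes. The miR-23 Tg libraries, at 33.3, 39.1 and 42.0 RPKM, and the DKO libraries, at 42.3, 41.4 and 38.8 RPKM, overlapped WT.

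Set directly against each other, the transgenic lines differed in Gimap5. The miR-24 Tg libraries averaged 59.0 ± 5.06 RPKM and the miR-27 Tg libraries 35.4 ± 2.35 RPKM (SD, n = 3 each), a log2 fold change of 0.72 ± 0.10 (SE, adjusted p = 0.000419, limma), and 13.0% of all tested genes were called between these lines. This comparison was added after the values of Gimap5 had been seen. Cluster Tg, with 49.0 ± 2.42 RPKM, exceeded miR-27 Tg by a log2 of 0.46 ± 0.10 (adjusted p = 0.0192, limma), where 3.79% of all tested genes were called. Cluster Tg exceeded miR-23 Tg, with 38.1 ± 4.46 RPKM, by 0.36 ± 0.10 (adjusted p = 0.0328, limma), where 10.3% of all genes were called. Gimap5 was the only member called in each of these 3 comparisons. Cluster Tg lay below miR-24 Tg by a log2 of -0.26 (95% interval -0.47 to -0.05, adjusted p = 0.239, limma). None of the 8 members was called there, beside 2.22% of all tested genes. At an unadjusted p under 0.05 (limma) there was 1 of the 8 members, beside 1412 of all 11099 tested genes.

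Both calls of cluster Tg ended when any 1 of its 3 libraries was left out, while the fold changes stayed close. Over all tested genes, leaving out replicate 1, 2 or 3 lowered the calls against miR-27 Tg from 421 to 103, 213 and 230. Against miR-23 Tg they fell from 1147 to 533, 821 and 748. Without cluster Tg replicate 1, 2 or 3, Gimap5 was no longer called against miR-27 Tg (0.47, 0.48 and 0.42, adjusted p = 0.0759, 0.0508 and 0.0741, limma) or against miR-23 Tg (0.37, 0.38 and 0.32, adjusted p = 0.0872, 0.0618 and 0.125). Without miR-23 Tg replicate 1 or the column of miR-23 Tg called column 3, whose header repeats that of another column, the difference between cluster Tg and miR-23 Tg was 0.27 and 0.38 (adjusted p = 0.148 and 0.0678). In fits of only the genotypes compared, the calls of Gimap5 against miR-27 Tg ended for cluster Tg (adjusted p = 0.498, limma) and for miR-24 Tg (adjusted p = 0.127, limma). Each of those fits called 5 of all 11099 tested genes, where the reported fit called 421 and 1441.

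Gimap9, a family member with no settled role, showed the largest change of the family and rose in the cells that over-expressed miR-27. It measured 193, 212 and 349 RPKM in the miR-27 Tg libraries, against 97.2, 109.8 and 119 RPKM in the WT libraries. The lowest miR-27 Tg library lay above every library of the other 5 genotypes. The means were 251 ± 85.2 RPKM in miR-27 Tg and 109 ± 10.9 RPKM in WT (SD, n = 3 each), a log2 fold change of 1.16 ± 0.23 (SE, adjusted p = 0.00641, limma). It was the only member called of 8, where 8.95% of all tested genes were called. The Gimap9 transcript holds the miR-27 seed match ACTGTGA shown above. The highest value came from miR-27 Tg replicate 3, which stood apart and which had the lowest Mir27a hairpin value of the genotype, 27981 RPKM against 216755 and 234933 RPKM in replicates 1 and 2. Without the libraries that stood apart the fold change was 0.90 (adjusted p = 0.000691, limma), and it held in 18 of 18 fits that left out a library. In a fit of miR-27 Tg and WT alone the call ended (adjusted p = 0.176, limma). That fit called 43 of all 11099 tested genes, where the reported fit called 993.

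Gimap9 also had higher values in the other genotypes of the set parted by the second component. Cluster Tg libraries measured 139.8, 155 and 181 RPKM and miR-24 Tg libraries 169, 144 and 133 RPKM. All 6 lay above the WT libraries, and above the miR-23 Tg libraries at 108, 99.2 and 108 RPKM. The DKO libraries measured 101, 112 and 179.6 RPKM, with replicate 3, which stood apart, in the range of cluster Tg. The log2 fold change against WT was 0.54 ± 0.23 in cluster Tg (adjusted p = 0.193, limma) and 0.44 ± 0.23 in miR-24 Tg (adjusted p = 0.416), and neither was called. Without the libraries that stood apart the spread between libraries was smaller, and Gimap9 was called at the same fold change in cluster Tg (adjusted p = 0.00386, limma) and in miR-24 Tg (adjusted p = 0.0179). Those fits called 29.1% and 17.5% of all tested genes. In the same fits Gimap9 was called higher in cluster Tg than in DKO (0.56, adjusted p = 0.00645, limma), beside 27.6% of all genes, and higher in cluster Tg than in miR-23 Tg (0.58, adjusted p = 0.00229), beside 34.9% of all genes. Relative to Gimap3, Gimap9 had a ratio of 0.256 to 0.343 in libraries of miR-24 Tg, miR-27 Tg and cluster Tg and of 0.186 to 0.292 in miR-23 Tg, DKO and WT libraries, where miR-23 Tg replicate 1 was highest and DKO replicate 3 next, at 0.243.

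**Figure D2:**
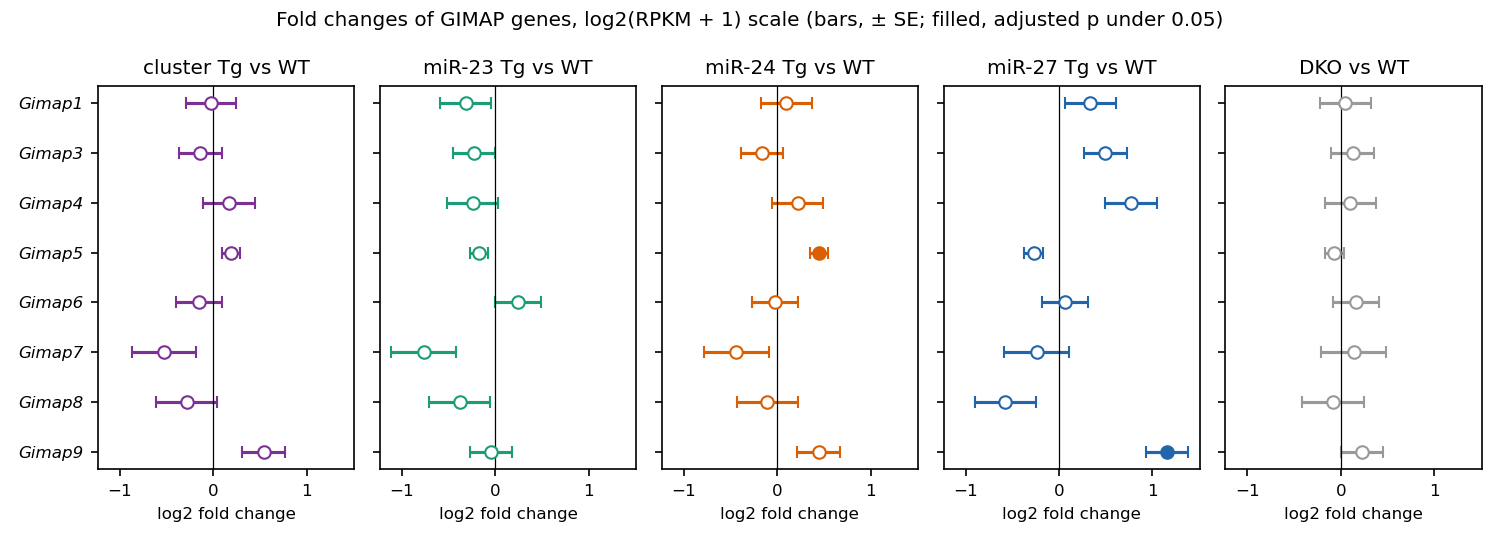
Log2 fold change (horizontal axis, log2(RPKM + 1) scale) of each GIMAP gene in the 5 comparisons with WT; points are limma estimates, bars ± SE, and filled points have an adjusted p under 0.05. The filled points are Gimap5 in miR-24 Tg at 0.45 and Gimap9 in miR-27 Tg at 1.16.

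Gimap4, the death-linked member, and Gimap3 had higher means in miR-27 Tg than in WT and were not called. Gimap4 measured 722, 861 and 1627 RPKM in miR-27 Tg, against 536, 571 and 665 RPKM in WT. Every miR-27 Tg library lay above every WT library, and the log2 fold change was 0.77 ± 0.27 (SE, adjusted p = 0.102, limma). Without miR-27 Tg replicate 1, Gimap4 was called (1.01, adjusted p = 0.0403, limma), and without the libraries that stood apart its fold change was 0.42 (adjusted p = 0.115). Gimap3 measured 573, 721 and 1081 RPKM in miR-27 Tg, against 509, 544 and 574 RPKM in WT, where the lowest miR-27 Tg library fell within the WT range. Its log2 fold change was 0.50 ± 0.23 (adjusted p = 0.195, limma). In miR-24 Tg, Gimap3, which carries the miR-24 match CTGAGCC, measured 523, 418 and 521 RPKM, with 2 of the 3 libraries inside the WT range, and its log2 fold change of -0.16 had a 95% interval of -0.65 to 0.33.

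Gimap1, which mature T and B cells need, did not pass the test in any comparison. It measured 158, 152 and 299 RPKM in miR-27 Tg, against 150.3, 139 and 170.5 RPKM in WT, so that only replicate 3 of miR-27 Tg lay above the WT range. The miR-23 Tg libraries, at 98.2, 138 and 137 RPKM, all lay below WT, with a log2 fold change of -0.31 and a 95% interval of -0.90 to 0.27. In cluster Tg, miR-24 Tg and DKO the log2 fold changes of Gimap1 against WT lay between -0.02 and 0.10.

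Gimap7 had the largest standard error of the family. It measured 24.1, 28.4 and 28.2 RPKM in miR-23 Tg, against 44.3, 42.1 and 53.0 RPKM in WT, which do not overlap. The log2 fold change of -0.76 ± 0.35 (SE) was the lowest of any member against WT, and it was not called (adjusted p = 0.625, limma). Without the libraries that stood apart its SE was 0.23 (adjusted p = 0.0869, limma). In a fit of miR-23 Tg and WT alone the adjusted p was 0.0782 (limma). Those fits called 432 and 14 of all 11099 tested genes. Cluster Tg libraries, at 24.7, 34.1 and 38.1 RPKM, also lay below WT (-0.53, adjusted p = 0.470, limma). In miR-24 Tg, replicate 1 had 53.0 RPKM and the other libraries 26.2 and 28.0 RPKM. The highest Gimap7 value of all, 84.9 RPKM, came from DKO replicate 3, more than the 40.9 and 38.1 RPKM of the other DKO libraries.

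Gimap8 and Gimap6 did not pass the test in any comparison. Gimap8 measured 146, 161 and 50.7 RPKM in miR-27 Tg, against 151, 142 and 185 RPKM in WT, and the low value was again that of the library that stood apart. Its log2 fold change of -0.57 ± 0.33 (adjusted p = 0.284, limma) was -0.05 without the libraries that stood apart. Gimap6, the ATG8-binding member with matches to miR-23 and miR-27, ranged from 595 to 1092 RPKM over the 18 libraries. Its log2 fold changes against WT lay between -0.15 (cluster Tg) and 0.24 (miR-23 Tg). The miR-23 Tg libraries measured 1092, 723 and 754 RPKM, against 733, 771 and 639 RPKM in WT, so the higher mean of miR-23 Tg rested on replicate 1. In miR-27 Tg, Gimap6 differed from WT by a log2 of 0.07, with a 95% interval of -0.46 to 0.60.

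In no genotype did all 8 genes lie on the same side of WT. In cluster Tg none was called, beside 8.48% of all tested genes. There 1 of 8 had an unadjusted p under 0.05, beside 2230 of all 11099 genes (limma). The median log2 fold change of the members was -0.08 beside 0 over all tested genes. In miR-23 Tg none was called, beside 0.0450% of all genes, and 1 had an unadjusted p under 0.05, beside 847 of all genes. In that genotype 7 of 8 lay below WT, with a median of -0.23 beside 0.006 over all tested genes. In DKO the count was 0 of 8 at the adjusted and 0 at the unadjusted threshold, where 0% of all tested genes (0 of 11099, limma) were called and 81 had an unadjusted p under 0.05. The members' log2 fold changes in DKO lay between -0.09 and 0.23 with 95% intervals from -0.79 to 0.88. Without DKO replicate 3 and miR-27 Tg replicate 3, no member was called in DKO, the range was -0.22 to 0.14, and the median was -0.04 where it was 0.11 with them. In miR-24 Tg 1 of 8 had an unadjusted p under 0.05, beside 1593 of all 11099 genes (limma). In miR-27 Tg 4 of 8 did, beside 2737 of all genes. The median of the members was 0.04 in miR-24 Tg, and in miR-27 Tg it was 0.20, beside 0.03 over all genes. The miR-27 Tg median was -0.01 without the libraries that stood apart and -0.06 under quantile normalisation. Cluster Tg against DKO gave 0 calls among the 8, where 11.3% of all tested genes were called. At an unadjusted p under 0.05 there was 1 member (Gimap5, 0.26), beside 2617 of all 11099 genes (limma). The median of the members was -0.14. That median was 0.05 without the libraries that stood apart and 0.01 under quantile normalisation.

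The libraries that stood apart held the highest values of Gimap1, Gimap3, Gimap4, Gimap7 and Gimap9 and the lowest of Gimap8. In miR-27 Tg replicate 3, the median gene with a longest annotated transcript under 1000 bases lay a log2 of 1.56 above the mean of the other miR-27 Tg libraries, and the median gene of 4000 bases or more lay at -0.72 relative to it. In DKO replicate 3 these medians were 0.72 and -0.38. The 5 members with transcripts of 1269 to 1953 bases (Gimap1, Gimap4, Gimap5, Gimap7 and Gimap9) lay between 0.13 and 1.04 in miR-27 Tg replicate 3, where the median of all 2051 genes between 1000 and 2000 bases was 0.86. Gimap5, at 0.13, was the lowest of them, and in DKO replicate 3 it lay at -0.11 while the other 4 lay between 0.59 and 1.09. Gimap8 and Gimap6, with transcripts of 3160 and 3179 bases, parted in miR-27 Tg replicate 3, at -1.58 and 0.74. Gimap3, with 2145 bases, lay at 0.75 there. The median of all 4055 genes between 2000 and 4000 bases was 0.06 in that library. The part of transcript length in the changes of single members was not tested.

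**Figure D3:**
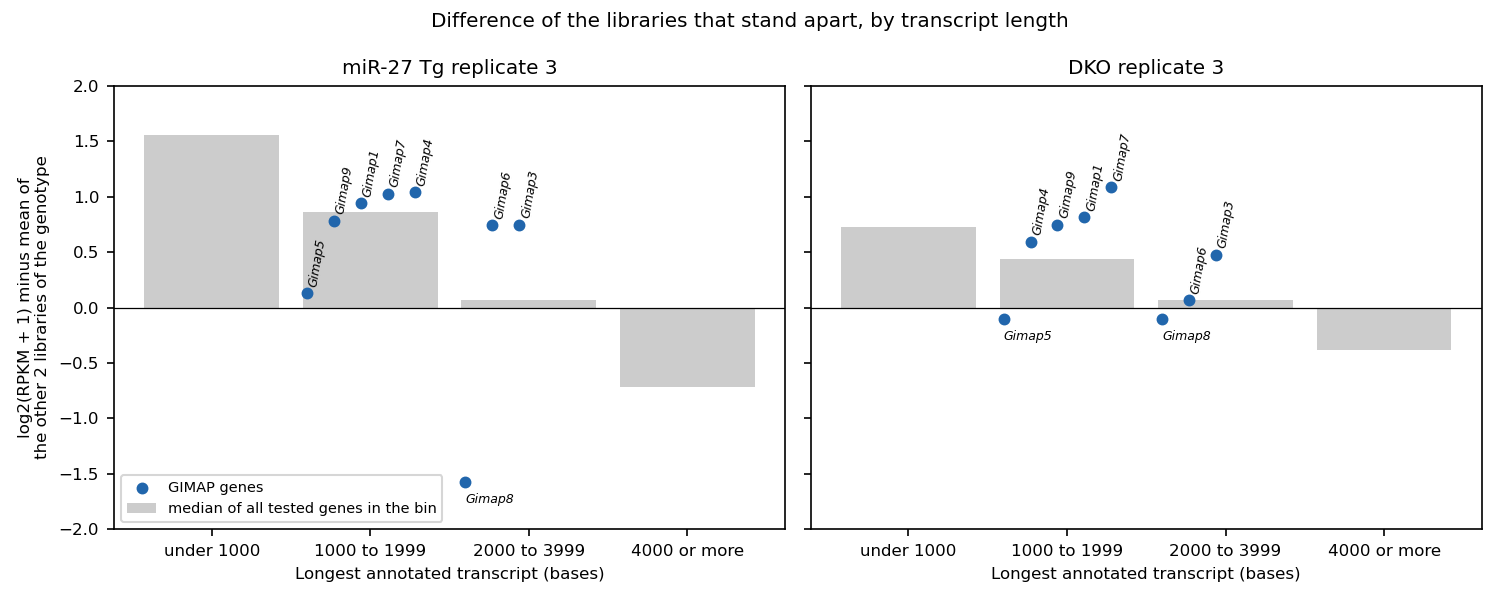
Difference in log2(RPKM + 1) between miR-27 Tg replicate 3 (left) or DKO replicate 3 (right) and the mean of the other libraries of its genotype. Grey bars are medians of all tested genes by longest annotated transcript, and points are GIMAP genes placed in their length class (position within a class has no meaning). In miR-27 Tg replicate 3, Gimap8 at -1.58 and Gimap5 at 0.13 lie below the median of their class. Gimap3 at 0.75 and Gimap6 at 0.74 lie above it.

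Other libraries differed from their genotype in a pattern that set Gimap6 against its neighbours. In miR-23 Tg replicate 1, Gimap6 was at its highest of all 18 libraries (1092 RPKM), and Gimap1, Gimap3 and Gimap4 were at their lowest (98.2, 371 and 409.7 RPKM). In miR-24 Tg replicate 2, Gimap6 reached 969 RPKM, against 596 and 595 RPKM in the other miR-24 Tg libraries, and Gimap1, Gimap3, Gimap4 and Gimap8 were the lowest of that genotype. The ratio of Gimap6 to Gimap4 was 2.67 in miR-23 Tg replicate 1 and 1.71 in miR-24 Tg replicate 2, and between 0.647 and 1.59 in the other 16 libraries. Over the 16 libraries without those that stood apart on the first component, Gimap6 correlated with Gimap4 at r = -0.79, with Gimap1 at -0.72, with Gimap8 at -0.64 and with Gimap3 at -0.59. Over all 18 libraries these were -0.02, 0.00, -0.69 and 0.09, and in miR-27 Tg replicate 3 Gimap6 (1052 RPKM) was high together with Gimap1, Gimap3 and Gimap4. In the same libraries Gimap4 correlated with Gimap9 at 0.81, Gimap3 with Gimap8 at 0.80 and Gimap1 with Gimap4 at 0.77. With all 18 they were 0.91, -0.36 and 0.89, so that Gimap3 and Gimap8 turned in sign. These coefficients are Pearson's r of log2(RPKM + 1) and describe libraries that share a genotype in groups of 2 or 3.

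**Figure D4:**
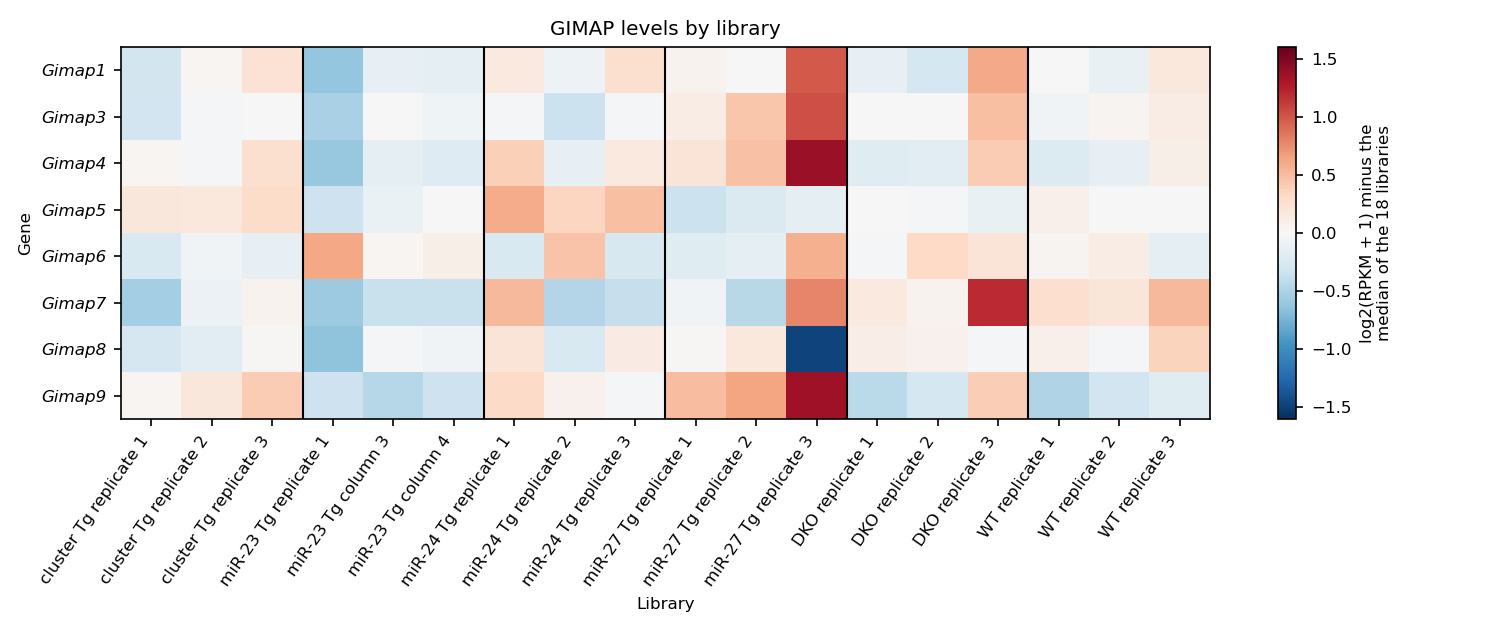
Level of each GIMAP gene in each library, as log2(RPKM + 1) minus the median of the 18 libraries (red above, blue below), with libraries grouped by genotype. Gimap8 and Gimap9 depart in opposite directions in miR-27 Tg replicate 3 (50.7 and 349 RPKM), and Gimap6 is high where Gimap1, Gimap3 and Gimap4 are low in miR-23 Tg replicate 1.

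The genes whose pattern over the 18 libraries was most like the mean of the 8 members (Pearson's r of log2 values) were Actb (0.96), which encodes beta-actin, Bub3 (0.95), a mitotic checkpoint gene, Cdc42se1 (0.95), Rab8a (0.95) and Commd5 (0.95). Over the 16 libraries the order changed: Il16, a T cell cytokine precursor, came first (0.94), and Actb and Cdc42se1 stayed among the first 5 (0.91 each). The likeness over 18 libraries thus rests in part on the libraries that stood apart, and no test was made on it.

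The genes lie on mouse chromosome 6 in the order Gimap8, Gimap9, Gimap4, Gimap6, Gimap7, Gimap1, Gimap5, Gimap3. Of 5 protein-coding neighbours on either side in the reference gene table, 5 of 10 passed the filter on low values: Lrrc61, Repin1 and Zfp775 beyond Gimap8, and Tmem176b and Tmem176a beyond Gimap3. Rarres2, Gm5111, Aoc1 and 1600015I10Rik reached at most 0.461 RPKM, and Gm7932 was not analysed here. The Tmem176 pair, membrane proteins of antigen-presenting cells and some T cells, changed far more than any member. Tmem176b, next to Gimap3, averaged 70.8 ± 28.3 RPKM in cluster Tg, 11.9 ± 2.66 in miR-24 Tg and 82.5 ± 49.4 in miR-27 Tg, against 3.80 ± 1.44 RPKM in WT (SD, n = 3 each). Its log2 fold changes were 3.88, 1.45 and 4.01 (adjusted p = 2.87e-05, 0.0393 and 2.21e-05, limma). Gimap3 itself lay at -0.14, -0.16 and 0.50 in the same comparisons, and Gimap5 at 0.19, 0.45 and -0.27. Tmem176a rose in both cluster Tg (3.79) and miR-27 Tg (3.68; adjusted p = 2.08e-05 and 2.09e-05, limma). On the other side Lrrc61 fell by 0.45 (cluster Tg) and by 0.51 (the miR-24 Tg libraries; adjusted p = 0.0209 and 0.0190, limma). Repin1, near 1 RPKM, rose by 0.54 in miR-27 Tg (adjusted p = 0.0365, limma), a call that ended under quantile normalisation and without the libraries that stood apart. Within the locus, calls against WT were made for Gimap5 and Gimap9 and for none of the other 6 members.

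**Figure D5:**
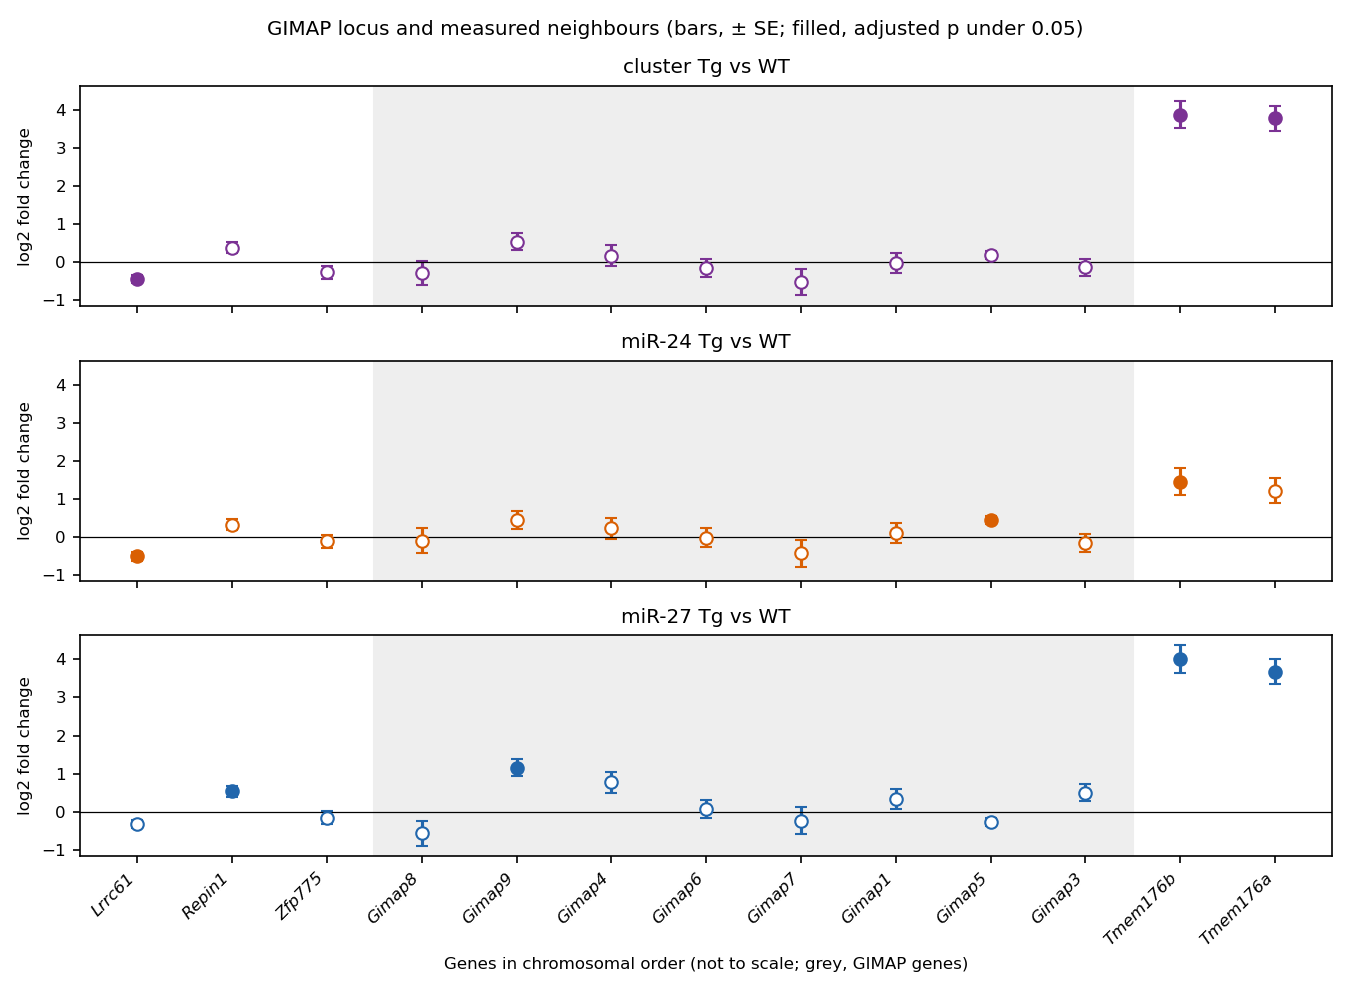
Log2 fold change against WT (vertical axis, log2(RPKM + 1) scale) of the GIMAP genes (grey area) and their measured neighbours in chromosomal order, for the cluster Tg, miR-24 Tg and also miR-27 Tg libraries. Bars are ± SE and filled points have an adjusted p under 0.05; Tmem176b stands at 3.88, 1.45 and 4.01 while the GIMAP genes lie between -0.57 and 1.16.

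Genes of GIMAP partners and of related pathways were examined as a list of 26 genes (BCL2 family, GSK3B, IL-7 receptor signalling, ATG8 family and autophagy core), all of which were tested. The list was not limited to known binding partners. Against WT, 1 rose and 1 fell in cluster Tg, 1 fell in miR-23 Tg, 1 rose in miR-24 Tg, 2 rose and 1 fell in miR-27 Tg, and none was called in DKO (0 at an unadjusted p under 0.05, limma), with medians between -0.01 and 0.17. The called share of the list was 7.69% in cluster Tg, 3.85% in miR-23 Tg, 3.85% in miR-24 Tg and 11.5% in miR-27 Tg, beside 8.48%, 0.0450%, 3.59% and 8.95% of all tested genes in the same comparisons, so the shares were near that of all genes except in miR-23 Tg, where the share was 1 gene. Gabarapl1, Bid and Bcl2l1 made these calls. Gabarapl1, an ATG8 family member of the kind that Gimap6 binds, averaged 11.3 ± 3.39 RPKM in cluster Tg, 7.32 ± 1.05 in miR-24 Tg and 5.79 ± 0.664 in miR-27 Tg, against 2.05 ± 0.618 RPKM in WT. Its log2 fold changes were 2.00, 1.46 and 1.17 (adjusted p = 0.000320, 0.00542 and 0.0120, limma). Bid, a BH3 member of the BCL2 family that promotes cell death, averaged 6.80 ± 0.231 RPKM in cluster Tg, 8.20 ± 0.567 in miR-23 Tg and 5.61 ± 0.231 in miR-27 Tg, against 12.5 ± 0.748 RPKM in WT. It fell by 0.79, 0.56 and 1.03 (adjusted p = 6.72e-05, 0.0375 and 1.58e-05, limma), and the call in miR-23 Tg ended under quantile normalisation. Bcl2l1, which encodes the survival protein Bcl-xL, rose in miR-27 Tg (14.8 ± 8.60 RPKM, against 6.86 ± 1.39 RPKM in WT, log2 fold change 0.89, adjusted p = 0.0410, limma), a call that ended under quantile normalisation.

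Of 12 factors that keep T cells naive, all tested, 2 rose in cluster Tg and none was called in the other 4 genotypes (0 to 3 at an unadjusted p under 0.05, limma), with medians between -0.22 and 0.15. That is 16.7% of the list in cluster Tg, where 8.48% of all tested genes were called, and 0% in miR-24 Tg and in miR-27 Tg, where 3.59% and 8.95% of all were called. Among those that rose was S1pr1, the receptor for exit from lymph nodes, which averaged 358 ± 20.6 RPKM in cluster Tg and 241 ± 37.5 RPKM in WT (SD, n = 3 each), a log2 fold change of 0.58 (adjusted p = 0.0381, limma). Its call ended under quantile normalisation.

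CD8 T cell, B cell and myeloid markers had higher sums than in WT in miR-24 Tg and miR-27 Tg. The same held in cluster Tg. The CD8 T cell markers Cd8a and Cd8b1, which a CD4 sort would leave out, summed to 29.7 to 46.5 RPKM in miR-24 Tg, 31.9 to 78.8 RPKM in miR-27 Tg and 32.7 to 50.3 RPKM in cluster Tg, against 17.5 to 20.6 RPKM in WT. They summed to 7.95 to 12.3 RPKM in miR-23 Tg and 20.4 to 30.3 RPKM in DKO. Cd8a was called higher than in WT in miR-24 Tg, miR-27 Tg and cluster Tg, and Cd8b1 in miR-27 Tg. The 8 B cell markers summed to 19.2 to 83.0 RPKM in miR-24 Tg and 28.6 to 144 RPKM in miR-27 Tg, against 5.02 to 6.41 RPKM in WT, and 4 of 8 were called higher in miR-24 Tg and 8 of 8 in miR-27 Tg. In cluster Tg they summed to 18.4 to 38.0 RPKM and none was called, with 6 of 8 at an unadjusted p under 0.05 (limma). The 7 myeloid markers summed to 29.0 to 589 RPKM in miR-27 Tg and 8.60 to 118 RPKM in miR-24 Tg, against 2.15 to 2.76 RPKM in WT, with S100a8 and S100a9 highest in miR-27 Tg replicate 3. The myeloid sums were 12.5 to 20.8 RPKM in cluster Tg, 1.80 to 9.34 RPKM in miR-23 Tg and 1.94 to 2.78 RPKM in DKO. Of the 4 myeloid markers that passed the filter on low values, 4 were called in miR-27 Tg and 1 in cluster Tg. In miR-24 Tg 0 were called and 4 had an unadjusted p under 0.05 (limma). The 4 NK markers reached at most 4.98 RPKM in sum, in miR-24 Tg, and the 4 endothelial markers at most 0.206 RPKM, in WT. Among the erythroid and platelet markers, Pf4 and Ppbp were listed at 0 in every library and Hbb-b1 reached 285 RPKM in miR-27 Tg replicate 3. The part of these cells in the levels of the GIMAP genes was not tested.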

How the data were processed

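RNA of naive CD4 T cells was measured in 18 libraries, 3 for each of 6 genotypes. The authors deposited 1 table of RPKM values with 23953 gene rows. The tools and build named in the submitters' processing notes are STAR 2.2.0c, HOMER and mm9. What each tool did, which gene models were used and whether strand was counted was not stated in any source used here. Read counts and depth are unknown, so no counting interval is given. Of 2 repeated symbols the row with the higher mean was used, and 2 columns of miR-23 Tg that carry the same header were used without a replicate number. Of 10118 genes at or above 1 RPKM in both columns, 0 had identical values.

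The values were transformed to log2(RPKM + 1), which understates changes of low genes. Genes that reached 1 RPKM in 3 or more libraries were fitted with limma 3.58.1 (lmFit, eBayes with a variance trend) in R 4.3.3, with genotype as the only term, and p-values were adjusted by Benjamini-Hochberg over all 11099 genes, with a threshold of 0.05. The procedure was tested on simulated independent values, which held no libraries that stand apart, no effect of transcript length and no pairing. That test does not bear on those features. The alternatives were a pseudocount of 0.1, no filter, quantile normalisation, median-ratio scaling, a replicate block, fits of only the genotypes compared, and leaving out libraries. The members and gene lists were chosen with earlier results of these data known. All members were named, with the 5 genes most like their mean, the 5 neighbours on each side, the hairpins and the called genes of the partner and naive T cell lists other than the gene left out below; marker lists were given mainly by their sums and counts. Transcript lengths and 3′ UTRs came from GENCODE transcripts on GRCm38 and microRNAs from RefSeq, and no coordinates were carried between builds. The antisense gene Gimap1os and any overlapping gene were not analysed here, and without a known use of strand their reads cannot be told apart from those of the members. A gene of the list of naive T cell factors is not reported here.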

Additional observations from a re-analysis of the deposited data

How the results depend on the processing

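No member reversed its direction where it was called. Called members of the 8 changed in number as follows. With quantile normalisation or a fit of the compared genotypes alone, 1 was called in cluster Tg against WT (0 in the reported fit). In cluster Tg against miR-23 Tg 2 were called (1 as reported). In each case Gimap9 was added (adjusted p = 0.0224, 0.0312, 0.00923 and 0.0179, limma). Over all 11099 tested genes, quantile normalisation called 1175 and 1334 in these comparisons (941 and 1147 as reported). The fits of the compared genotypes alone called 2302 and 2575. The fit of the compared genotypes alone, with fewer libraries, called 0 in miR-27 Tg against WT, in cluster Tg against miR-27 Tg and in miR-24 Tg against miR-27 Tg (1 each as reported). In these comparisons it called 43, 5 and 5 of all tested genes (993, 421 and 1441 as reported). Without the libraries that stood apart (replicate 3 of miR-27 Tg and of DKO), the count was 1 in cluster Tg against WT and against DKO, and 2 in cluster Tg against miR-23 Tg, miR-24 Tg against WT, miR-27 Tg against WT and miR-24 Tg against miR-27 Tg. In the order named, that fit called 3225, 3068, 3877, 1937, 2218 and 2976 of all 11099 tested genes.

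Leaving out each library in turn gave 0 to 1 in miR-24 Tg against WT, 1 to 2 in miR-27 Tg against WT, 0 to 1 in cluster Tg against DKO, 0 to 2 in cluster Tg against miR-23 Tg, 0 to 2 in cluster Tg against miR-27 Tg, 1 to 3 in miR-24 Tg against miR-27 Tg, and 2 throughout in the F test over the 6 genotypes; the other comparisons stayed at 0. The single libraries that end a call of Gimap5 are named with it in the report. Over all tested genes the calls in miR-27 Tg against WT ranged from 43 to 2218 under these alternatives (993 as reported), those in cluster Tg against WT from 419 to 3225 (941) and those in miR-24 Tg against WT from 180 to 1937 (398). With each library left out in turn, they ranged from 561 to 2714 in cluster Tg against DKO (1259). Those of cluster Tg ranged from 533 to 2415 against miR-23 Tg (1147) and from 103 to 804 against miR-27 Tg (421). For miR-24 Tg against miR-27 Tg the range was 847 to 1925 (1441).

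The replicate number was not a term of the reported fit. Not every same-numbered pair of libraries had deviations from the genotype means that correlated above 0.1. That rule is strict, and its failure does not show that the libraries are unpaired. The values correlated were deviations of each gene from its genotype mean in log2(RPKM + 1), over all tested genes, with miR-23 Tg left out. For same-numbered libraries of different genotypes the correlations of these deviations were -0.11 to 0.58 (median 0.08), 11 of 30 over 0.1. For different numbers they were -0.47 to 0.30 (median -0.04), 6 of 60 over 0.1. Whether libraries of the same number belong together is not settled by these values. With the replicate number as a block, 3 members instead of 1 were called in miR-24 Tg against miR-27 Tg, adding Gimap3 (adjusted p = 0.0495) and Gimap9 (adjusted p = 0.0496), and no other count of called members changed; that fit left out the miR-23 Tg columns without a number, so its miR-23 Tg comparisons rest on 1 library, assumed to vary like those of the other genotypes. The cause of these differences was not tested. Precision is limited by 3 libraries a genotype, and the depth is unknown.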
